A study of Saccharomyces cerevisiae with 24 samples.

Results

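The thioredoxin, glutaredoxin and peroxiredoxin genes of Saccharomyces cerevisiae were followed across 8 strains adapted to hydrolysates of lignocellulosic biomass. The 10 genes were picked by name, with earlier results of these data known. They are the thioredoxins TRX1, TRX2 and TRX3, the thioredoxin reductases TRR1 and TRR2, the glutaredoxins GRX1 and GRX2, the glutathione reductase GLR1, and the peroxiredoxins TSA1 and AHP1. All 10 were measured, each by 2 probes, so that 20 of the 8152 named probes and 10 of the 4069 named genes are described. GRX2 is listed in the probe table under its older symbol, TTR1.

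Thioredoxins and glutaredoxins are small proteins that reduce disulfide bonds in other proteins through a pair of cysteines. Oxidised thioredoxin is returned to its reduced form by thioredoxin reductase with electrons from NADPH, while glutaredoxins are reduced by glutathione, which glutathione reductase restores, again from NADPH. Peroxiredoxins break down peroxides and are themselves reduced by thioredoxin. In yeast many of these genes are targets of Yap1 and Skn7, the transcription factors of the response to oxidative stress, and the furans and aldehydes of plant hydrolysates are known to oxidise the cell and to draw on NADPH.

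Each adapted strain was hybridised against a reference strain, labelled only by a fluorescent protein, on 2-colour arrays, once on each of 3 slides that held 8 arrays each. The adapted mutant PY-231 had the reference YFP. The reference DsRed served for 4 mutants (M1, PR-164, PR-338 and PR-438) and the reference GFP for 3 (PG-132, PG-259 and PG-353). The labels give no parent strain, no allele and no mutation for any mutant, and do not say whether a mutant was 1 clone. All strains and references share 1 growth description, YNB minimal medium without glucose and biomass hydrolysate at 1 g/mL, and whether that means 1 medium or several cannot be read from the labels. The mutant was in Cy5 on slides 1 and 3 and in Cy3 on slide 2, and 5 µg of cDNA was labelled. A replicate number below is a slide number. The series calls the sets biological replicas, but the labels do not name the cultures, so the p-values measure the spread between these arrays.

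Values are log2 ratios of mutant over reference, relative to the median of all named probes on the array, and a gene is the mean of its probes. An array value of 1.00 thus means a ratio double the array median. The fitted value of a mutant comes from limma over 24 arrays with a term for dye orientation, and is given with its SE, n = 3 arrays a mutant. A gene was called at a Benjamini-Hochberg adjusted p under 0.05 over 4069 genes. A test of a ratio against 0 holds the spread of the reference only as far as its cultures differed between arrays. The labels do not say whether they did. Since no slide other than slide 2 had Cy3 on the mutant, what belongs to the slide and what belongs to the dye cannot be told apart.

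The labels do not state which way the ratio runs on slide 2. It was read as mutant over reference, which is likely: the array medians of all spots were 2.44 to 5.41 on slide 2 and 0.22 to 1.41 on the others, and mating-type genes in M1 ran the same way on slides 2 and 3. The 6 genes specific to a-cells had medians of 3.81 and 4.20 there, and the 4 genes specific to alpha-cells had -4.56 and -5.95. Values with slide 2 turned are given beside the calls, the counts of signs and the single-mutant values described at most length.

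Several arrays stood apart. On PY-231 replicate 1 the correlation between the probes of a gene was -0.01, against 0.29 to 0.93 on the other 23 arrays. M1 replicate 1 lacked the mating-type difference of its mutant, with a median of -0.24 for the a-cell genes and 0.55 for the alpha-cell genes. PR-438 replicate 1 and PG-259 replicate 1 went against the other arrays of their mutants over chromosome VIII, which carries TRR2. No array of slide 1 showed the mating-type difference of M1: the a-cell medians there ran from -0.43 in PR-164 to 0.18 in PR-438. Whether some labels of slide 1 are wrong was not tested. No array was moved, and replicate 1 of M1, PR-438 and PG-259 means the array labelled so. Counts and means of the 10 genes were also computed without each of these arrays, and single-mutant values of PR-438 and M1 are given without replicate 1 where they are described. The position of a mutant within the slide was also the same on all 3 slides.

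None of the 10 genes was called in any single mutant. In limma, 0 of 80 combinations of gene and mutant passed, with 5 at an unadjusted p under 0.05, while the background over all genes and mutants was 59 calls, or 0.181%. The share of all genes at an unadjusted p under 0.05 is not given, here or beside the counts below. By mutant the share of genes called was 0% in PY-231, 0.295% in PR-438, 0.123% in PR-338, 0.492% in PR-164, 0.246% in M1, 0.221% in PG-132, 0.0492% in PG-259 and 0.0246% in PG-353. In the mean of the 8 mutants 4 genes were called, all lower: GRX2, GRX1, TSA1 and TRR1. The background there was 13.3% of genes called, 11.2% lower and 2.09% higher. The dye term was called for 8 of the 10, against 30.8% of all genes.

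**Figure D1:**
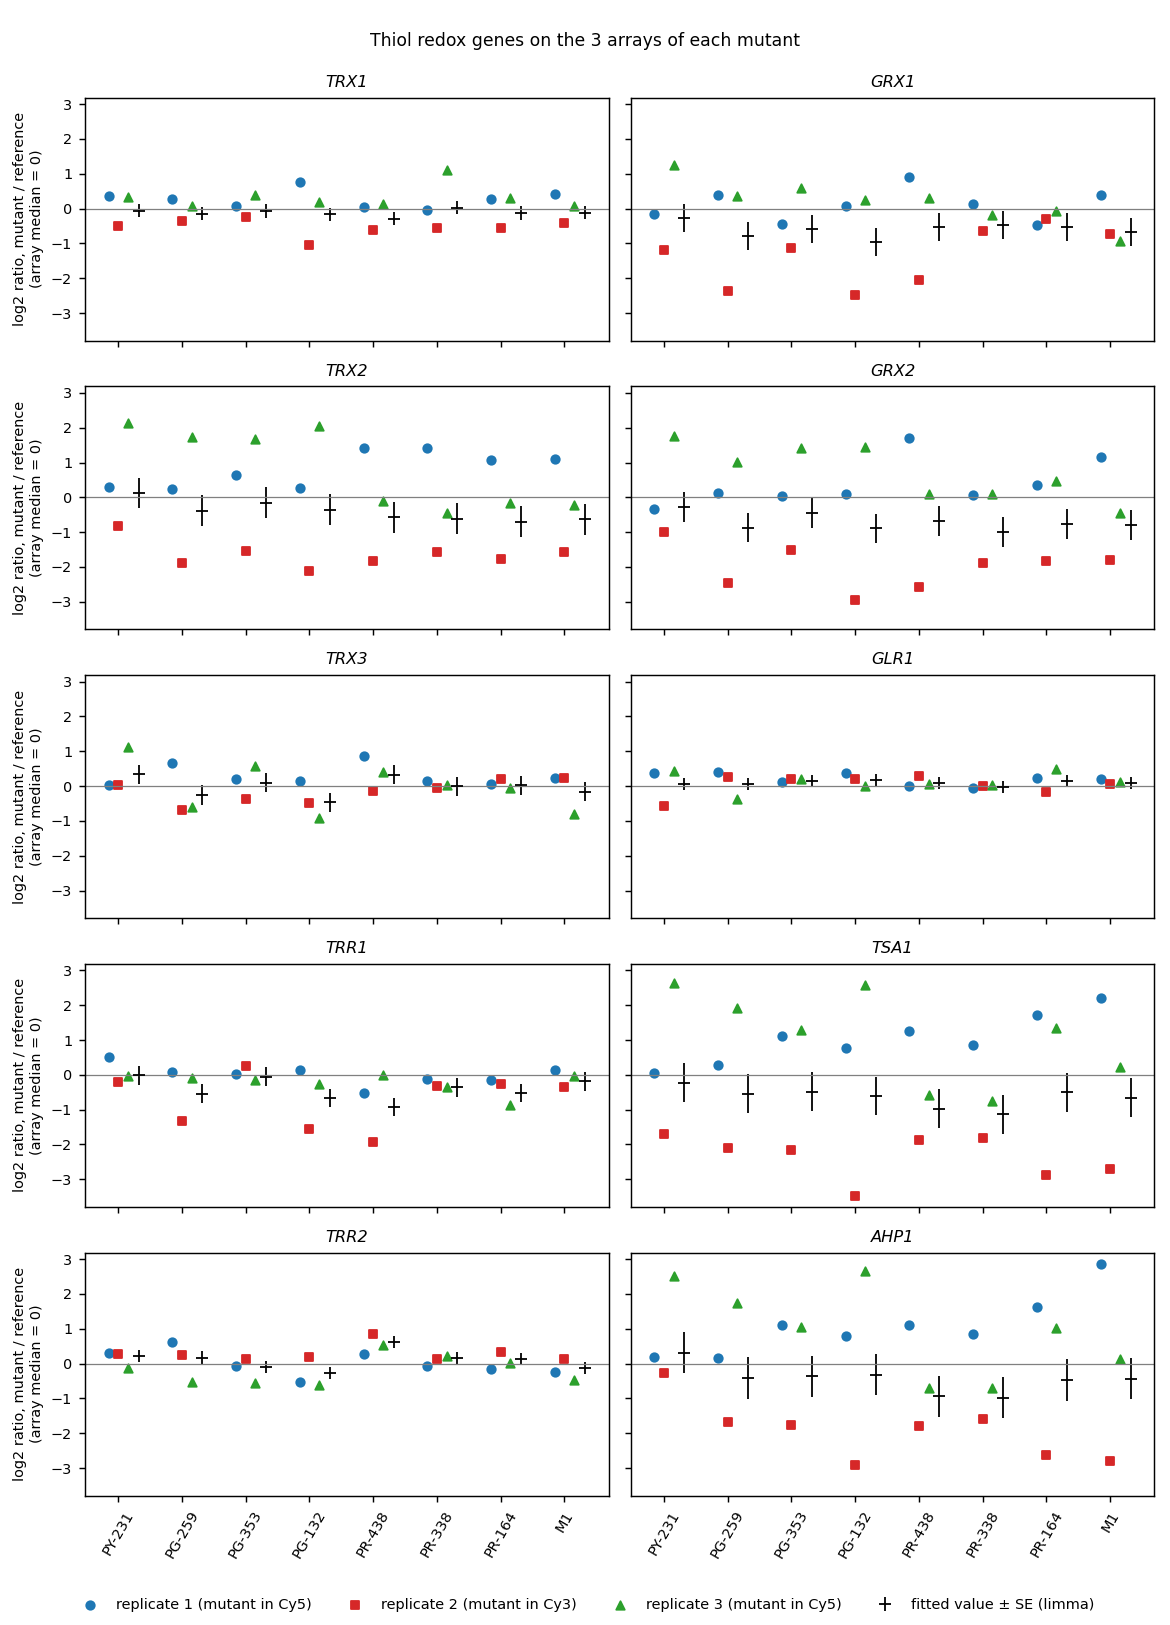
Log2 ratio of mutant over reference, with the array median at 0, for each of the 10 genes on the 3 arrays of each mutant, and the fitted value with its SE from limma. TSA1, TRX2, GRX2 and AHP1 lie below 0 on all 8 arrays of replicate 2 and, except GRX2 on 1 array, above 0 on all 8 of replicate 1. On replicate 3 TRX2 is above 0 on 4 arrays, TSA1 and AHP1 on 6 and GRX2 on 7, whereas GLR1 keeps within -0.57 and 0.48 on all slides.

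TRX1 and TRX2 encode the cytosolic thioredoxins, the main electron donors for ribonucleotide reductase, for sulfate assimilation and for the peroxiredoxins. Both are close paralogs, and whether their probes bind each other's cDNA was not tested. TRX1 on replicate 1 stood at 0.37 in PY-231, 0.07 in PG-353, 0.28 in PG-259, 0.77 in PG-132, 0.42 in M1, 0.29 in PR-164, -0.05 in PR-338 and 0.04 in PR-438. Replicate 2 gave TRX1 values of -0.49 in PY-231, -0.25 in PG-353, -0.36 in PG-259, -1.05 in PG-132, -0.43 in M1, -0.56 in PR-164, -0.56 in PR-338 and -0.61 in PR-438. For TRX1 replicate 3 gave 0.34 in PY-231, 0.38 in PG-353, 0.07 in PG-259, 0.19 in PG-132, 0.07 in M1, 0.30 in PR-164, 1.11 in PR-338 and 0.13 in PR-438. TRX1 thus lay below 0 on all 8 arrays of replicate 2, above 0 on all 8 of replicate 3 and above 0 on 7 of replicate 1, the exception being PR-338. The range of TRX1 on replicate 2, from -1.05 to -0.25, did not overlap its ranges on the other slides. How many of all genes had such a gap was not counted. Fitted TRX1 values ran from -0.29 in PR-438 to 0.03 in PR-338, with an SE of 0.19, and the smallest adjusted p was 0.514.

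The slide means of TRX2, 0.81, -1.64 and 0.83 on replicates 1, 2 and 3, were farther from 0 than those of TRX1, 0.27, -0.54 and 0.32. TRX2 on replicate 1 stood at 0.30 in PY-231, 0.64 in PG-353, 0.25 in PG-259, 0.26 in PG-132, 1.10 in M1, 1.06 in PR-164, 1.41 in PR-338 and 1.42 in PR-438. Replicate 2 gave TRX2 values of -0.83 in PY-231, -1.56 in PG-353, -1.89 in PG-259, -2.13 in PG-132, -1.56 in M1, -1.78 in PR-164, -1.57 in PR-338 and -1.82 in PR-438. For TRX2 replicate 3 gave 2.13 in PY-231, 1.67 in PG-353, 1.73 in PG-259, 2.04 in PG-132, -0.22 in M1, -0.16 in PR-164, -0.46 in PR-338 and -0.10 in PR-438. All 8 mutants were above 0 on replicate 1 and below 0 on replicate 2. On replicate 3 TRX2 divided by reference: the 4 mutants set against YFP and GFP had 1.67 to 2.13, and the 4 set against DsRed had -0.46 to -0.10. The median deposited ratios of the named probes on that slide divided too, with 0.22 to 0.47 on the YFP and GFP arrays and 0.61 to 1.53 on the DsRed arrays, and their part in the TRX2 values was not tested. This division on 1 slide was noticed in the values. The DsRed minus GFP difference of the whole fit was -0.34 with a 95% interval of -1.04 to 0.37, adjusted p = 0.831 in limma. Fitted TRX2 values ran from -0.70 in PR-164 to 0.13 in PY-231, with an SE of 0.44. Its 2 probes had a median gap of 0.58 and a largest gap of 2.02, although they correlated at 0.91 over the arrays.

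TRX3 encodes the mitochondrial thioredoxin. Its arrays ran from 0.02 to 0.86 on replicate 1, from -0.68 to 0.24 on replicate 2 and from -0.93 to 1.11 on replicate 3. Fitted values lay between -0.47 in PG-132 and 0.34 in PY-231, with an SE of 0.28 and no unadjusted p under 0.106. PY-231 was above 0 on all 3 arrays, at 0.02, 0.02 and 1.11, but the first of these comes from the array whose probe pairs did not correlate. The last is the mean of probes at 0.04 and 2.18, a gap of 2.15 in size.

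TRR1 encodes the cytosolic thioredoxin reductase, which passes electrons from NADPH to TRX1 and TRX2. TRR1 on replicate 1 stood at 0.52 in PY-231, 0.02 in PG-353, 0.09 in PG-259, 0.13 in PG-132, 0.14 in M1, -0.13 in PR-164, -0.11 in PR-338 and -0.53 in PR-438. Replicate 2 gave TRR1 values of -0.20 in PY-231, 0.26 in PG-353, -1.32 in PG-259, -1.57 in PG-132, -0.36 in M1, -0.27 in PR-164, -0.32 in PR-338 and -1.93 in PR-438. For TRR1 replicate 3 gave -0.04 in PY-231, -0.14 in PG-353, -0.10 in PG-259, -0.26 in PG-132, -0.02 in M1, -0.87 in PR-164, -0.34 in PR-338 and -0.01 in PR-438. On replicate 3 all 8 mutants were below 0, and on replicate 2 all but PG-353 were, while replicate 1 had 5 above 0. The low end came from 3 arrays of replicate 2, PR-438, PG-132 and PG-259, at -1.93, -1.57 and -1.32. The next lowest array of any slide was PR-164 on replicate 3, at -0.87.

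In PR-438 the fitted TRR1 value was -0.92 ± 0.27 (SE, n = 3), unadjusted p = 0.00289 and adjusted p = 0.129 in limma, and in PG-132 it was -0.67 ± 0.27, adjusted p = 0.312. TRR1 was below 0 on all 3 arrays of PR-438, PR-338 and PR-164. Over all genes and mutants the background of such triples was 11.8%, and among the 10 genes here they numbered 4 of 80, the fourth being GRX1 in PR-164. They numbered 3 of 80 with slide 2 turned, beside 16.2%. The PR-438 value was -0.97 without PR-438 replicate 1, adjusted p = 0.276, -0.27 without replicate 2, -1.23 without replicate 3 and -0.49 after a loess correction on brightness, and none of these passed either. With slide 2 turned it was 0.60.

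TRR2 encodes the mitochondrial thioredoxin reductase. It was dimmer than the other 9 genes, brighter than 56.0% of all genes. TRR2 on replicate 1 stood at 0.31 in PY-231, -0.07 in PG-353, 0.61 in PG-259, -0.54 in PG-132, -0.25 in M1, -0.16 in PR-164, -0.06 in PR-338 and 0.26 in PR-438. Replicate 2 gave TRR2 values of 0.28 in PY-231, 0.12 in PG-353, 0.25 in PG-259, 0.18 in PG-132, 0.14 in M1, 0.32 in PR-164, 0.12 in PR-338 and 0.85 in PR-438. For TRR2 replicate 3 gave -0.13 in PY-231, -0.56 in PG-353, -0.53 in PG-259, -0.60 in PG-132, -0.46 in M1, 0.02 in PR-164, 0.21 in PR-338 and 0.54 in PR-438. TRR2 was above 0 on all 8 arrays of replicate 2 and on 3 arrays of each other slide. The highest array was PR-438 on replicate 2, followed by PG-259 on replicate 1 and PR-438 on replicate 3, and the remaining 21 arrays did not exceed 0.32.

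PR-438 was above 0 for TRR2 on all 3 arrays, at 0.26, 0.85 and 0.54. Its fitted value was 0.61 ± 0.17, with a 95% interval of 0.25 to 0.97, unadjusted p = 0.00235 and adjusted p = 0.126 in limma. Among the mutants set against DsRed, the limma F test for TRR2 had an adjusted p of 0.874, and PR-438 exceeded M1 by 0.74 (0.23 to 1.25), adjusted p = 0.236. That difference was 0.83 without PR-438 replicate 1, 0.78 without M1 replicate 1 and 0.27 with slide 2 turned, none of them called. No call was made in these tests for any of the 10 genes. The pairwise comparisons gave 0 of 90, with 1 at an unadjusted p under 0.05 and 0 calls over all genes, a background of 0%.

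TRR2 lies on chromosome VIII in the R64 gene catalogue, and its ratio was high on the arrays where that chromosome was. In the PR-438 fit the 186 other measured genes of chromosome VIII had a median of 0.28, with 135 of them above 0, and TRR2 stood above 87.1% of them. By array their medians in PR-438 were 0.01 on replicate 1, 0.44 on replicate 2 and 0.48 on replicate 3. PG-259 had 0.43, 0.03 and 0.10 on its arrays, so the 3 arrays with the highest chromosome medians were also the 3 with the highest TRR2. TRR2 exceeded the chromosome median by 0.25, 0.41 and 0.06 on the PR-438 arrays and by 0.18 on PG-259 replicate 1. The part of the chromosome in the TRR2 ratio was not tested. The array labelled PG-259 replicate 1 thus had the chromosome median of the later PR-438 arrays, and the array labelled PR-438 replicate 1 did not.

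Without PG-259 replicate 1, TRR2 in PR-438 had 0.62 and was called at an adjusted p of 0.0407, beside 0.27% of genes higher in that mutant. Without PR-438 replicate 1 it had 0.69 and an adjusted p of 0.203. It was 1.09 after quantile normalisation between arrays, adjusted p = 0.0302 beside 0.639% of genes higher, and 0.60 after the loess, adjusted p = 0.308. With slide 2 turned it was -0.05.

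**Figure D2:**
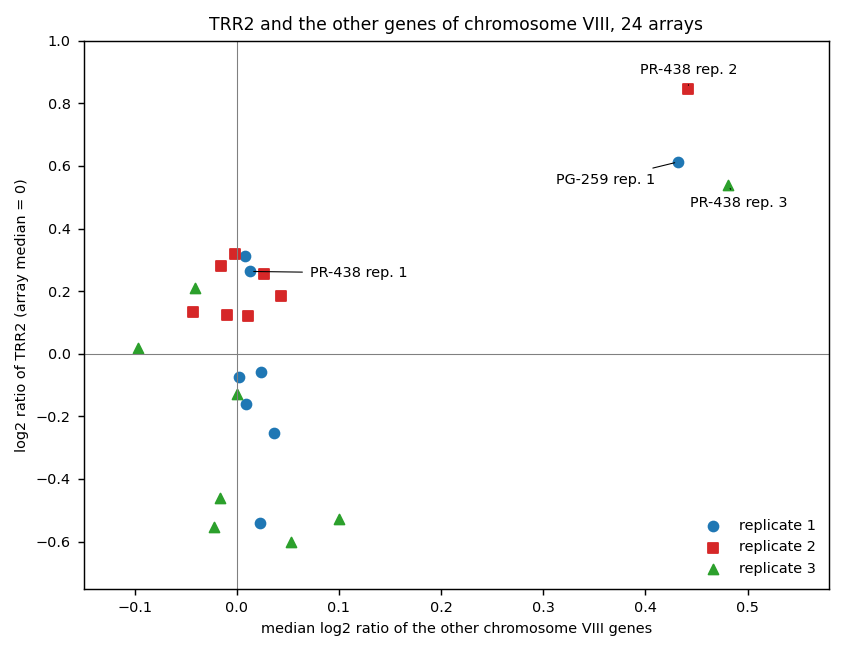
Log2 ratio of TRR2 (vertical axis) against the median log2 ratio of the 186 other measured genes of chromosome VIII (horizontal axis), 1 point for each of the 24 arrays, by replicate. PR-438 replicates 2 and 3 and PG-259 replicate 1 lie together at chromosome medians of 0.43 to 0.48, apart from the other 21 arrays.

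GRX1 and GRX2 encode dithiol glutaredoxins, which use glutathione to reduce protein disulfides and mixed disulfides. Both were called lower in the mean of the 8 mutants, GRX1 at -0.60 ± 0.15, adjusted p = 0.00954 in limma, and GRX2 at -0.71 ± 0.16, adjusted p = 0.00427. GRX1 on replicate 1 stood at -0.15 in PY-231, -0.45 in PG-353, 0.40 in PG-259, 0.08 in PG-132, 0.38 in M1, -0.47 in PR-164, 0.14 in PR-338 and 0.92 in PR-438. Replicate 2 gave GRX1 values of -1.18 in PY-231, -1.13 in PG-353, -2.36 in PG-259, -2.48 in PG-132, -0.72 in M1, -0.29 in PR-164, -0.63 in PR-338 and -2.05 in PR-438. For GRX1 replicate 3 gave 1.25 in PY-231, 0.58 in PG-353, 0.37 in PG-259, 0.25 in PG-132, -0.93 in M1, -0.07 in PR-164, -0.17 in PR-338 and 0.31 in PR-438. Every mutant was below 0 on replicate 2, and 5 of 8 were above 0 on each other slide. GRX1 in PR-164 was below 0 on all 3 arrays. The lowest single-mutant value was -0.96 ± 0.40 in PG-132, unadjusted p = 0.0255 and adjusted p = 0.322.

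GRX2 on replicate 1 stood at -0.32 in PY-231, 0.04 in PG-353, 0.12 in PG-259, 0.10 in PG-132, 1.16 in M1, 0.37 in PR-164, 0.07 in PR-338 and 1.72 in PR-438. Replicate 2 gave GRX2 values of -0.99 in PY-231, -1.50 in PG-353, -2.45 in PG-259, -2.94 in PG-132, -1.80 in M1, -1.84 in PR-164, -1.89 in PR-338 and -2.57 in PR-438. For GRX2 replicate 3 gave 1.77 in PY-231, 1.42 in PG-353, 1.02 in PG-259, 1.45 in PG-132, -0.45 in M1, 0.46 in PR-164, 0.09 in PR-338 and 0.09 in PR-438. Again all 8 mutants were below 0 on replicate 2, while 7 of 8 were above 0 on each of replicates 1 and 3. The highest GRX2 array of replicate 2, PY-231 at -0.99, lay below every array of the other slides, a gap that was not counted over all genes. The call of a lower mean thus rests on replicate 2, which weighs as much in the fit as replicates 1 and 3 together. The largest single-mutant difference of GRX2 was -1.01 ± 0.43 in PR-338, adjusted p = 0.408.

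GLR1 encodes glutathione reductase, which regenerates glutathione for the glutaredoxins. Its dye term, given below, was the smallest of the 10 in size. Its arrays ran from -0.04 to 0.40 on replicate 1, from -0.57 to 0.29 on replicate 2 and from -0.37 to 0.48 on replicate 3. It was above 0 on all 3 arrays of PR-438, PG-353, PG-132 and M1, and those 4, with TRR2 in PR-438 and TRX3 in PY-231, made 6 of 80 such triples against a background of 13.1%. Such triples numbered 37 of 80 with slide 2 turned, beside 17.5%. Fitted values lay between -0.02 and 0.18, with an SE of 0.17, and the 95% intervals of the 8 mutants lay between -0.39 and 0.54. The 2 GLR1 probes correlated at -0.003 over the arrays, with a median gap of 0.30, so the variation of each probe was not shared by the other.

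TSA1 and AHP1 encode abundant peroxiredoxins that are reduced by thioredoxin. TSA1 breaks down hydrogen peroxide, and AHP1 prefers alkyl hydroperoxides. TSA1 on replicate 1 stood at 0.07 in PY-231, 1.13 in PG-353, 0.28 in PG-259, 0.77 in PG-132, 2.20 in M1, 1.72 in PR-164, 0.86 in PR-338 and 1.25 in PR-438. Replicate 2 gave TSA1 values of -1.70 in PY-231, -2.16 in PG-353, -2.11 in PG-259, -3.48 in PG-132, -2.70 in M1, -2.87 in PR-164, -1.81 in PR-338 and -1.88 in PR-438. For TSA1 replicate 3 gave 2.65 in PY-231, 1.30 in PG-353, 1.91 in PG-259, 2.58 in PG-132, 0.23 in M1, 1.33 in PR-164, -0.74 in PR-338 and -0.58 in PR-438. All 8 mutants were above 0 on replicate 1 and below 0 on replicate 2, and 6 of 8 were above 0 on replicate 3. The highest array of replicate 2, -1.70 in PY-231, lay below every array of the other slides, and here too the share of all genes was not counted. No single mutant reached an unadjusted p under 0.05, and the lowest fitted value was -1.13 ± 0.56 in PR-338, adjusted p = 0.483. The mean of the 8 mutants was -0.64 ± 0.21, adjusted p = 0.0476 in limma.

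AHP1 on replicate 1 stood at 0.18 in PY-231, 1.10 in PG-353, 0.17 in PG-259, 0.79 in PG-132, 2.87 in M1, 1.63 in PR-164, 0.84 in PR-338 and 1.12 in PR-438. Replicate 2 gave AHP1 values of -0.27 in PY-231, -1.77 in PG-353, -1.68 in PG-259, -2.92 in PG-132, -2.80 in M1, -2.62 in PR-164, -1.59 in PR-338 and -1.79 in PR-438. For AHP1 replicate 3 gave 2.52 in PY-231, 1.04 in PG-353, 1.75 in PG-259, 2.66 in PG-132, 0.12 in M1, 1.04 in PR-164, -0.70 in PR-338 and -0.69 in PR-438. AHP1 divided by slide as TSA1 did, with 8 above 0 on replicate 1, 0 on replicate 2 and 6 on replicate 3. PR-438 and PR-338 were the 2 mutants below 0 on replicate 3 for both peroxiredoxins. Their arrays also had the highest median ratios of the named probes on that slide, 1.25 and 1.53. Without centring, TSA1 stood there at ratios of 0.84 and 0.92 and AHP1 at 0.78 and 0.945. The part of the array median in these signs was not tested. Over the 24 arrays, after the slide means were subtracted, TSA1 and AHP1 correlated at 0.95, and at 0.86 after the loess. This describes 24 arrays that share slides and brightness. The mean of AHP1 over the 8 mutants was -0.45 ± 0.22, adjusted p = 0.18, and its largest single value was -0.97 ± 0.60 in PR-338, adjusted p = 0.595.

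Across the mean of the 8 mutants, the calls were 4 of 10 genes lower and 0 higher. The remaining genes had TRX2 at -0.41 (adjusted p = 0.105), TRX1 at -0.12 (0.269), TRX3 at -0.01 (0.944), TRR2 at 0.10 (0.329) and GLR1 at 0.10 (0.329). TRR1 had -0.41 ± 0.10, adjusted p = 0.00964. After the loess on brightness none of the 4 passed: GRX2 had 0.09, GRX1 0.05, TSA1 -0.04 and TRR1 -0.07, while TRX1 was called higher at 0.47, adjusted p = 0.0364, beside 2.8% of genes.

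The 4 calls also changed with single slides. Without replicate 1 only GRX2 was called, at -0.63, beside 7.96% of genes lower. GRX1 then had -0.58, adjusted p = 0.0695, TSA1 had -0.63, adjusted p = 0.122, and TRR1 had -0.47, adjusted p = 0.058 in limma. Without replicate 2 TSA1, AHP1, TRX2 and TRX1 were called higher instead, at 1.06, 1.03, 0.82 and 0.30, beside 16.2% of genes, and TRR1 had -0.10, adjusted p = 0.352 in limma. Without replicate 3 GRX1, GRX2, TSA1 and TRX2 were called lower, beside 11.5% of genes, and TRR1 was not, at -0.35 with an adjusted p of 0.0643. TSA1 alone lost its call without PY-231 replicate 1, at -0.57 and an adjusted p of 0.0648, and without PG-259 replicate 1, at -0.60 and 0.072. The backgrounds of lower calls without these arrays were 10.3% and 10.4%. TSA1 also lost it under quantile scaling, at -0.35 and an adjusted p of 0.122, and with 1 probe a gene, at -0.69 and 0.0556, where TRX2 was called at -0.68 and 0.0185. With the slide as a block only TRR1 passed, at -0.31 and an adjusted p of 0.029, beside 12.6% of genes lower. With slide 2 turned the mean takes the value of the dye term described below. In that setting 7 genes were called, all higher, from 0.30 for TRR1 to 1.70 for TSA1, beside 19.2% of genes. In single mutants 13 of the 80 tests then passed, all higher, beside 3.6% of all combinations of gene and mutant.

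**Figure D3:**
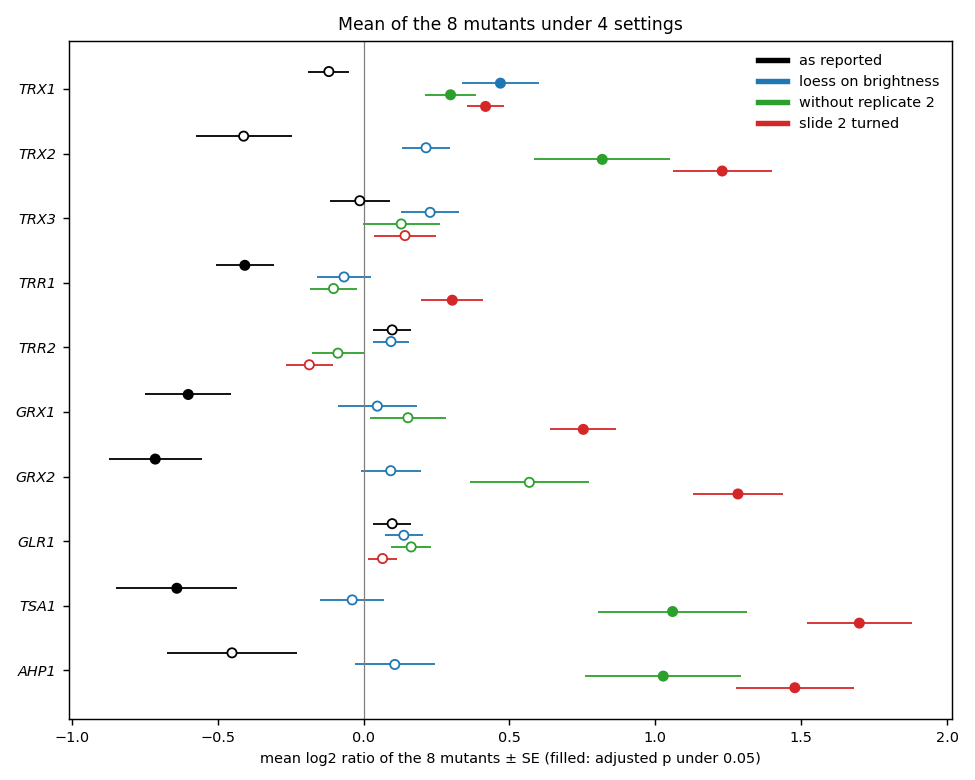
Mean log2 ratio of the 8 mutants with its SE (horizontal axis) for each of the 10 genes, as reported, after a loess on brightness, without replicate 2 and with slide 2 turned; filled points passed an adjusted p of 0.05. The 4 genes called lower as reported lie at -0.07 to 0.09 after the loess, and GLR1 keeps to one side of 0 in all 4 settings.

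The dye term, which is the mean difference between the mutant being in Cy5 and in Cy3 divided by 2, was called for 8 of the 10 genes, 7 higher and 1 lower. For a gene with values on all arrays it equals the mean of the 8 mutants with slide 2 turned, so those means are no separate result. The background was 18.5% higher and 12.3% lower. It was 1.70 ± 0.21 for TSA1, 1.48 ± 0.22 for AHP1, 1.28 ± 0.16 for GRX2 and 1.23 ± 0.17 for TRX2. GRX1 had 0.75, TRX1 0.42 and TRR1 0.30, all called in limma, and TRR2 had -0.19, adjusted p = 0.0361. TRX3 at 0.14 and GLR1 at 0.07 were not called. For the 2 peroxiredoxins, GRX2, TRX2 and TRX1 the dye term was larger in size than any fitted difference between a mutant and its reference.

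The genes with the largest dye terms were among the brightest on the arrays, and their deposited ratios varied less than the array medians did. Brightness was estimated from the ratios, as the geometric mean of the whole numbers whose quotient each could be reduced to. Of the 10 genes 6 were among the 404 brightest of 4036: TRX1, TRX2, GRX1, GRX2, TSA1 and AHP1. TRX3 and TRR1 were among the next 403. As deposited, without centring, the TSA1 ratio stayed between 0.49 and 1.54 on all 24 arrays and that of AHP1 between 0.70 and 2.38, while the array medians of the named probes ran from 0.22 to 5.50.

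The slope of the uncentred log2 ratio on the array median was -0.27 for TSA1, -0.16 for AHP1, 0.09 for TRX2 and 0.09 for GRX2, 0.50 for GRX1 and 0.77 for TRX1. A slope of 1 means that a gene follows the array median, and the median over 4036 genes was 0.997, with the 5% and 95% points of the distribution at 0.02 and 1.20. TRR1 had 0.82, TRX3 0.91, GLR1 0.97 and TRR2 1.16. Within the 404 brightest genes the median slope was 0.06, so that 4 of the members there lay near it or below and GRX1 and TRX1 above it. Of those 404 genes 63.9% were called lower in the mean of the 8 mutants, and of the next 403 genes 30.8%. Of the 404 brightest genes 93.3% were called higher instead with slide 2 turned, and of the next 403 genes 29.3% were called higher and 8.44% lower. The turned means have the values of the dye terms. Whether the brightness of these genes accounts for their lower means was not tested.

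**Figure D4:**
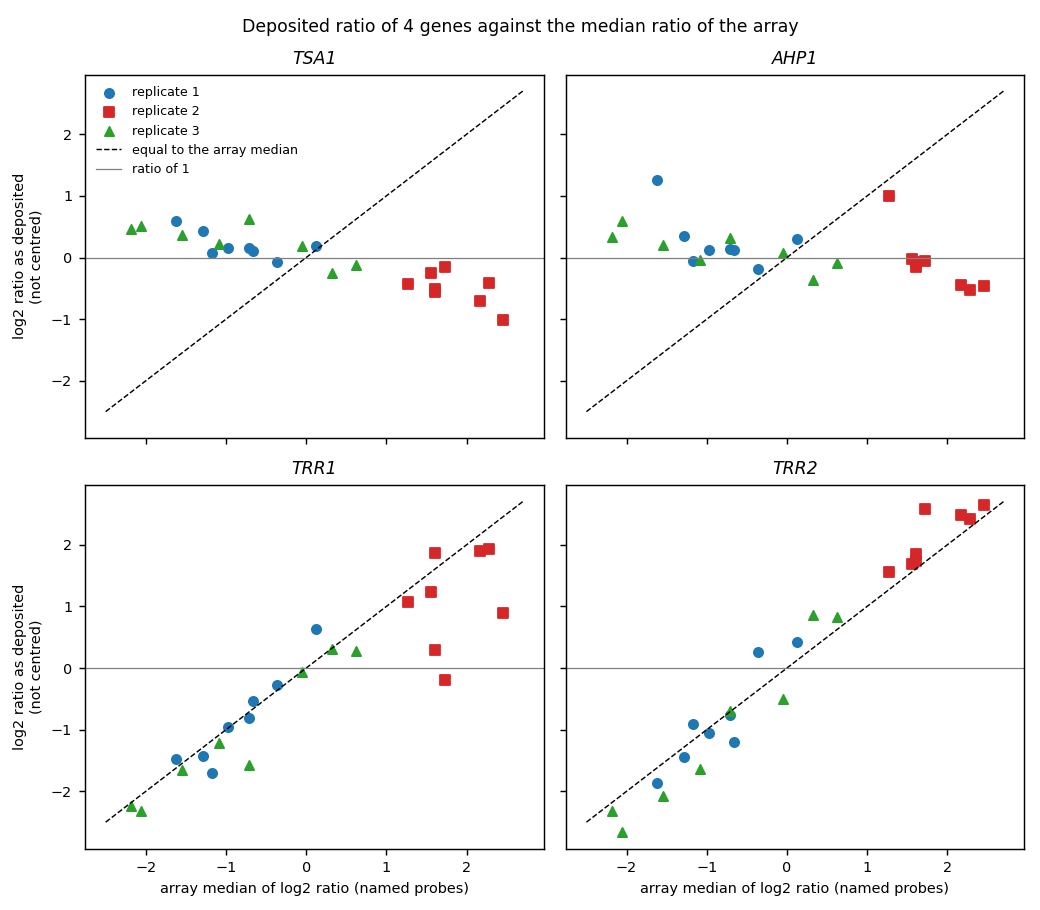
Log2 of the deposited ratio, not centred (vertical axes), against the log2 median ratio of the array (horizontal axes) for TSA1, AHP1, TRR1 and TRR2, 1 point for each of 24 arrays, by replicate. TSA1 and AHP1 stay near a ratio of 1 on nearly all arrays. TRR1 and TRR2 broadly follow the dashed line of equality, and 3 low TRR1 arrays of replicate 2 lie farthest from it.

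**Figure D5:**
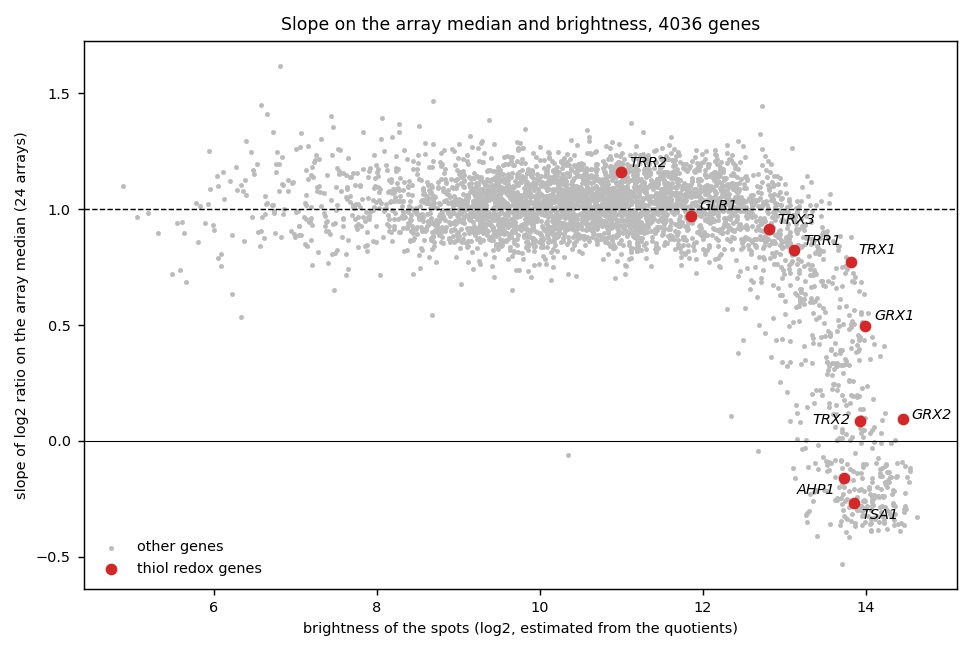
Slope of each gene's uncentred log2 ratio on the array median over 24 arrays (vertical axis) against the estimated log2 brightness (horizontal axis), for 4036 genes in grey and the 10 thiol redox genes in red. Most genes lie near a slope of 1, and slopes near or below 0 occur among the brightest genes, where TSA1, AHP1, TRX2 and GRX2 are found.

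After the loess the dye term was called for 5 genes, beside 28.1% of all genes. TSA1 kept a positive term of 0.60 and AHP1 one of 0.49, whereas TRX1 had -0.65, GRX1 -0.47 and GRX2 -0.37. TRX1 and GRX1, whose slopes exceeded the median of the brightest genes, and GRX2 thus crossed 0. With slide 2 turned, and no loess, the dye term was called for 4 genes, beside 14.8% of all genes. In that setting it has the value of the mean as reported. The correlation of GRX2 with TSA1 over the arrays went from 0.70 to -0.58 and that of TRX2 with TSA1 from 0.80 to 0.06, while GRX1 and GRX2 had 0.73 before and 0.79 after. These coefficients describe 24 arrays that share slides.

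Between references none of the 10 genes was called: the mean of the 4 DsRed mutants minus that of the 3 GFP mutants gave 0 calls in limma, 0 at an unadjusted p under 0.05, and a background of 0%. The smallest p was that of TRR2 at 0.25, with an interval of -0.02 to 0.53 and adjusted p = 0.82. The F tests gave 0 calls among the DsRed mutants, with 1 at an unadjusted p under 0.05, and 0 among the GFP mutants, with 0, both against a background of 0%. The mutants of 1 reference share only that reference's label.

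The genes whose values followed each member most closely over the 24 arrays, after the slide means were subtracted, were named by the 3 highest Pearson correlations. For TSA1 they were PMP3, CWP2 and MRH1, at 0.99, 0.98 and 0.98, which encode membrane or cell wall proteins, and for AHP1 they were FIT3, TDH3 and GND1, at 0.98, 0.97 and 0.97. TRX2 had GRS1, THS1 and TIF1 at 0.92 to 0.95, the first pair being aminoacyl-tRNA synthetases. All 9 were brighter than at least 89.7% of genes.

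GRX1 was followed by the chaperone gene HSP82, by ARC15 and by VMA10 at 0.86 to 0.88, and GRX2 by YPT1, PFY1 and TIM11 at 0.87 to 0.90. TRR1 had NHP6A, ITR1 and RPS22B at 0.84 to 0.87, and TRX1 had BMH2, ARO3 and BET2 at 0.70 to 0.83. For the dimmer genes, TRX3 had STB2, DSE4 and IES1 at 0.83 to 0.85, TRR2 had YSC84, GUT1 and BIG1 at 0.80 to 0.86, and GLR1 had MFM1, TOR1 and MAF1 at 0.68 to 0.71. The YSC84 coefficient was 0.86 both before and after the loess, while that of GRX2 with YPT1 went from 0.90 to 0.55. The TRR2 coefficients include the arrays where the chromosome VIII median was high, and the part of the chromosome in them was not tested. The arrays share slides and a dye layout, so the coefficients carry no p.

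Other genes of these families, 8 of 13 listed being measured (the glutaredoxins GRX3, GRX4 and GRX5, the peroxiredoxins TSA2 and DOT5, and the peroxidases HYR1, GPX1 and GPX2), gave no call in the single mutants, 0 of 64 with 5 at an unadjusted p under 0.05, and none in the mean of the 8 mutants, with 1. Their median in the mean was 0.05, against 0.00 over all genes. TSA2, the inducible paralog of TSA1, had the smallest p among them, at -0.72 ± 0.28 in PG-132, adjusted p = 0.292 in limma. TSA2 was brighter than 52.7% of genes and had a slope of 1.07.

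Among 6 measured genes of 7 listed for enzymes that thioredoxin reduces, RNR2 and RNR4 were called lower in the mean, at -0.71 ± 0.16 and -0.35 ± 0.10, adjusted p = 0.00573 and 0.024 in limma, beside 11.2% of all genes lower. Both encode the small subunit of ribonucleotide reductase, the enzyme that makes deoxynucleotides. The list's median was -0.37. After the loess neither passed, nor with the slide as a block. Without replicate 2 they had 0.88 and 0.225, and with slide 2 turned 1.58 and 0.575. RNR2 was among the 404 brightest genes with a slope of -0.09. In single mutants 0 of 48 passed, with 4 at an unadjusted p under 0.05, and the smallest p was that of RNR2 in M1, at -1.23 ± 0.44, adjusted p = 0.21, and -1.65 without M1 replicate 1, adjusted p = 0.264.

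The regulators, 8 of 10 listed with YAP1 and SKN7 among them and HYR1 shared with the list of family genes, gave 0 calls of 64 in single mutants, 0 at an unadjusted p under 0.05, and 0 in the mean, with 1. Their median in the mean was 0.00, and the smallest p was that of CAD1, a factor related to Yap1, at 0.48 ± 0.23 in PR-338, adjusted p = 0.469 in limma.

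Other targets of Yap1, 17 of 18 listed, gave 0 calls of 136 in single mutants, with 13 at an unadjusted p under 0.05, and 3 of 17 lower in the mean, beside 11.2% of all genes, with a list median of -0.17. The 3 were OYE2, an NADPH oxidoreductase, at -0.93 ± 0.18, adjusted p = 0.00116, SOD1, the copper and zinc superoxide dismutase, at -0.69 ± 0.21, adjusted p = 0.033, and ZWF1 at -0.73 ± 0.17, adjusted p = 0.00517. The smallest p in a single mutant was that of ZWF1 in M1, at -1.48 ± 0.45, adjusted p = 0.141, and -0.94 without M1 replicate 1, adjusted p = 0.427. After the loess OYE2 had -0.38, adjusted p = 0.0314, ZWF1 had -0.57, adjusted p = 0.0356, and SOD1 had -0.12, adjusted p = 0.612. OYE2 and SOD1 had slopes of -0.12 and -0.39 and were among the 404 brightest genes, of which 71 were called lower after the loess. ZWF1 was among the next 403, of which 47 were. Without replicate 2 the means of OYE2, SOD1 and ZWF1 were 0.64, 1.27 and -0.32, and with slide 2 turned 1.57, 1.955 and 0.41. SOD1 also lost its call without PY-231 replicate 1, at -0.65 and an adjusted p of 0.0507, and without replicate 1, at -0.70 and 0.102. ZWF1 lost it without replicate 1, at -0.48 and 0.115.

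All 12 listed genes of NADPH supply were measured, and 4 were called lower in the mean, beside 11.2% of all genes: TKL1 at -1.06 ± 0.09, TAL1 at -0.99 ± 0.15, ZWF1 as above and IDP1 at -0.60 ± 0.08, with adjusted p of 7.24e-07 for TKL1 in limma. TKL1 and TAL1 encode enzymes of the pentose phosphate pathway, ZWF1 its first enzyme and IDP1 a mitochondrial isocitrate dehydrogenase. The 4 also passed after the loess, at -0.52, -0.50, -0.57 and -0.43. In that setting 71 of the 404 brightest genes were called lower, and 47 of the next 403. Without replicate 2 TKL1, TAL1 and IDP1 had -0.05, 0.58 and -0.06, and with slide 2 turned 1.01, 1.57 and 0.54. In single mutants 2 of 96 passed, with 23 at an unadjusted p under 0.05: TKL1 in PR-438 at -1.50 ± 0.25, adjusted p = 0.0176, and in PR-164 at -1.31 ± 0.25, adjusted p = 0.0295, beside 0.295% and 0.492% of all genes. The share of all genes at such an unadjusted p is not given, so the 23 have no background to be read against. Neither of the 2 TKL1 values passed after the loess. Without replicate 2 they were -0.45 and -0.265, and with slide 2 turned 0.92 and 0.98. Without PR-438 replicate 1 the PR-438 value was -1.62, adjusted p = 0.124. The list's median in the mean was -0.04. TKL1 and TAL1 were among the 404 brightest genes, of which 63.9% were called lower, and ZWF1 and IDP1 among the next 403, of which 30.8% were.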

How the data were processed

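RNA of 8 mutants was measured against reference strains on 24 2-colour arrays. The deposited values carry the unit score: linear ratios of background-subtracted channels, some below 0, as read from the values. The labels point to GenePix result files, and scaling, build and annotation are not given in the sources used here. Values at or below 0 (2.14% to 8.28% of an array's spots) were left out, the rest put on the log2 scale and centred on each array's median over 8152 named probes. Of 4073 symbols, 3940 were current in the R64 gene catalogue, 129 matched a synonym and 4 kept the file's name. Signal over background stands in for depth, and the number of arrays limits precision.

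R 4.3.3 with limma 3.58.1 and the data.table package, version 1.17.8, was used to fit 8 mutant coefficients to 24 arrays (lmFit, then eBayes). A dye term was added, coded +1 for a Cy5 mutant and -1 for a Cy3 mutant. Per mutant, the mean of all 8, DsRed minus GFP, 9 pairs, the dye term and 2 F tests made 22 tests a gene, each adjusted over 4069 genes. The median residual SD was 0.379 with 15 degrees of freedom. Each ratio was written as a quotient of whole numbers (denominator up to 30000, 88.5% to 100% of an array's values recovered). Brightness was the log2 of the geometric mean of numerator and denominator, taken as the median over arrays. Reduced quotients make it a low estimate. The loess had a span of 0.3.

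Tested on simulated data for PR-438 against its reference over 4036 genes, the fit recovered 71 of 100 genes changed by a log2 size of 1 and 96 of 100 changed by 2, with 3 false calls. The changed genes were drawn from all genes, and the simulated noise was independent between arrays, unlike that of the real slides. The counts thus do not give the recovery to be had for the genes described here. A replicate number is a shared slide per the labels, so the numbers pair the arrays. Deviations from mutant means correlated at a median of 0.37 on slide 1, 0.75 on slide 2 and 0.30 on slide 3 over 28 pairs each. The fit as reported did not model this sharing.

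The members and lists were chosen with earlier results of these data known. Values on every array are given for members called in any test, other members by range, list genes that passed by name and otherwise the one with the smallest p, and for each member the 3 most correlated genes. Alternatives were the direction of slide 2, no dye term, a slide block, the loess, quantile scaling, 1 probe a gene, only probes above 0 on every array, arrays of 1 reference, and leaving out each slide or single arrays. Leaving out PR-438 replicate 1 or PG-259 replicate 1, and applying these settings to list genes, counts of signs and the brightest genes, were chosen after seeing the data. No sequences are shown. Plots were drawn with matplotlib 3.10.9, and tables made with numpy 2.4.6 and pandas 2.3.3 under Python 3.11.15.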

Additional observations from a re-analysis of the deposited data

How the results depend on the processing

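The counts of genes called depended on slide 2 and on brightness. With slide 2 turned, 13 of the 80 tests in single mutants passed, all higher (among TSA1, AHP1, GRX1, GRX2, TRX1 and TRX2), against 0 as reported, the mean of the 8 mutants gave 7 calls and the dye term 4. Quantile scaling gave 1 call in a single mutant, TRR2 in PR-438. In the mean of the 8 mutants, 4 calls as reported became 0 without a dye term, 1 with a replicate block, which is the fit that pairs the arrays by slide, and 1 after the loess on brightness, which was TRX1 and none of the 4. The loess left 5 calls for the dye term. Leaving out a slide or 1 of the arrays that stood apart gave 0 to 1 calls in single mutants, 1 to 4 in the mean of the 8 mutants and 7 to 8 for the dye term. The 1 call in a single mutant was TRR2 in PR-438 without PG-259 replicate 1. The calls among the DsRed mutants, among the GFP mutants, between pairs and between references were 0 in every setting run. For the mean without a dye term, under quantile scaling or with 1 probe a gene, the share of all genes called is not given. Nor is it for the dye term where a slide or an array was left out. The cause of the changes in these counts was not tested.

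With slide 2 turned the means changed sign to 0.418 for TRX1, 1.229 for TRX2, 0.142 for TRX3, 0.304 for TRR1, -0.186 for TRR2, 0.753 for GRX1, 1.283 for GRX2, 1.699 for TSA1 and 1.478 for AHP1. These are the values of the dye terms as reported, and no separate result. The single-mutant values became 0.299 for TRX1 in PR-438, 1.03 for TRX2 in PR-164, 0.599 for TRR1 in PR-438, -0.048 for TRR2 in PR-438, 1.139 for GRX1 in PG-132, 0.92 for GRX2 in PR-338, 0.855 for TSA1 in PR-338 and 0.727 for AHP1 in PR-338. Without a dye term, and with the replicate block, the means of TRX1, TRX3 and AHP1 changed sign, to 0.02, 0.034 and 0.042 in both fits. After the loess the means changed sign to 0.469 for TRX1, 0.214 for TRX2, 0.228 for TRX3, 0.047 for GRX1, 0.093 for GRX2 and 0.107 for AHP1, and single values to 0.447 for TRX1 in PR-438, 0.065 for TRX2 in PR-164 and 0.193 for GRX2 in PR-338.

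Leaving out a slide or an array, the means ran over 0 for several genes: -0.132 to 0.298 for TRX1, -0.448 to 0.818 for TRX2, -0.094 to 0.129 for TRX3, -0.088 to 0.148 for TRR2, -0.634 to 0.152 for GRX1, -0.796 to 0.568 for GRX2, -0.696 to 1.059 for TSA1 and -0.539 to 1.027 for AHP1. In each of these except TRX3 the turn came without replicate 2 alone. TRX3 also turned without replicate 3 and without PY-231 replicate 1. Single values ran from -0.289 to 0.082 for TRX1 in PR-438, -0.97 to 0.45 for TRX2 in PR-164, -1.197 to 0.168 for GRX1 in PG-132, -1.026 to 0.078 for GRX2 in PR-338, -1.274 to 0.058 for TSA1 in PR-338 and -1.144 to 0.071 for AHP1 in PR-338, again turning without replicate 2 alone. The mean of GLR1, GLR1 in PG-132 and TRX3 in PG-132 kept their direction in every setting run. With 3 arrays a mutant, an SE of 0.17 to 0.60 for the 10 genes limits what a single mutant can show.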
